A study of Mus musculus with 12 samples.

Results

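The genes described here were Ncoa6, Ggt7, Acss2, Gss, Myh7b, Trpc4ap, Edem2, Mmp24 and Eif6, which lie next to each other on mouse chromosome 2 between 155390656 and 155826925 (GRCm38), a stretch of 436 kb. They were chosen by name, as 9 of the 16106 genes of the table, and with the pravastatin response already known, so their folds and counts between pravastatin and vehicle are given as a description and without p-values. The samples were neurospheres, floating spheres of neural stem and progenitor cells (NSPCs), grown from the cerebral cortex of C57BL/6 mouse embryos at embryonic day 14.5. At passage 3 they received 10 μM pravastatin or an equal volume of vehicle (PBS) for 24 hours, which gave 3 female pravastatin, 3 male pravastatin, 3 female vehicle and 3 male vehicle libraries of total RNA. Libraries of the same sex and number were taken as 1 culture grown from 1 embryo, because their sample codes share a letter and a digit and their residuals correlated, which gave 6 cultures. The labels do not say whether the pravastatin and vehicle libraries were prepared together, and the labels mark the vehicle libraries as re-used from an earlier series, so preparation and treatment cannot be told apart.

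Pravastatin blocks HMG-CoA reductase, the enzyme that makes mevalonate for cholesterol synthesis. Cells short of sterol release the SREBP transcription factors, which switch on genes of cholesterol and fatty acid synthesis, and Acss2, which makes acetyl-CoA from acetate in the cytosol and nucleus, is a known SREBP target. The other 8 genes belong to different processes. Ggt7 is a member of the gamma-glutamyltransferase family, Gss makes glutathione from gamma-glutamylcysteine and glycine, and Myh7b is a slow myosin heavy chain whose gene hosts the microRNA Mir499. Ncoa6 is a coactivator of nuclear receptors, Trpc4ap is a substrate adaptor of a ubiquitin ligase, Edem2 trims mannose from misfolded glycoproteins in the endoplasmic reticulum, Mmp24 is a membrane-bound metalloproteinase, and Eif6 keeps the large ribosomal subunit from joining too early.

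Of these 9 genes, 3 were called higher with pravastatin (Acss2, Ggt7 and Myh7b), 1 was called lower (Gss) and 5 were not called (Ncoa6, Trpc4ap, Edem2, Mmp24 and Eif6). A call here is an adjusted p under 0.05 from limma on log2(value + 0.5), fitted over 15093 genes with sex as a term and no term for culture. Over all of those genes 2.69% were called higher and 0.311% lower. With a term for each culture Ncoa6 was called higher too, where 10.5% of all genes were called higher and 8.13% lower. Standard errors are from fits without culture terms. The genes called without culture terms lie side by side, in the order Ggt7, Acss2, Gss, Myh7b, and the 5 others stand on either side of them. In bulk RNA, fewer cells that express a gene and less of its RNA per cell cannot be told apart.

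**Figure D1:**
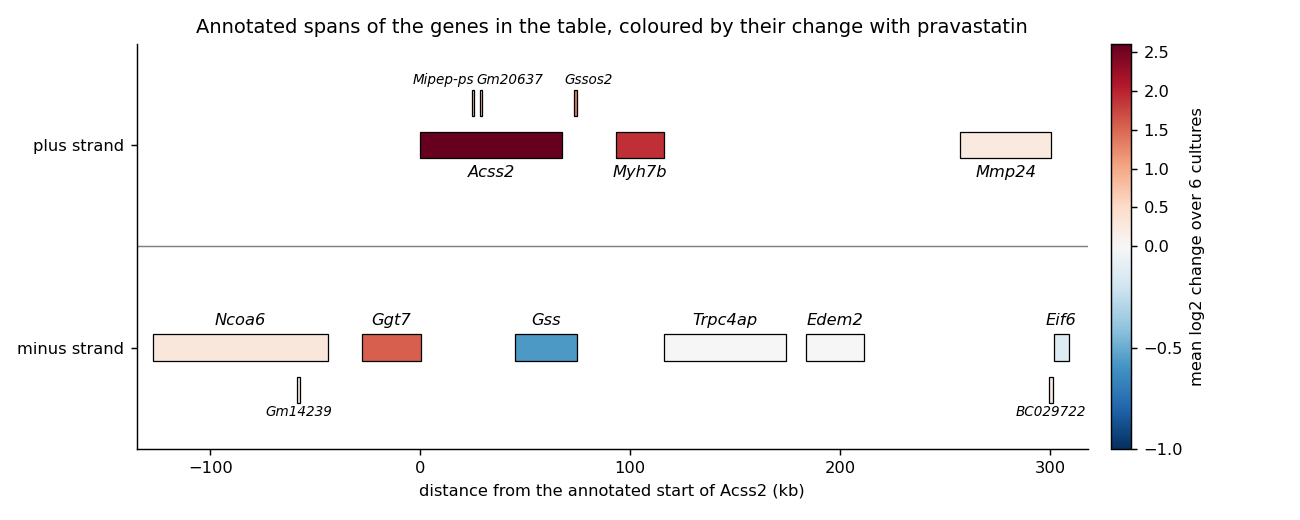
Annotated spans (GENCODE vM21, GRCm38) of the 14 genes of the interval that are in the table, by distance in kb from the annotated start of Acss2, with plus-strand genes above the line and minus-strand genes below it. The 5 minor genes are drawn outside the others and widened to be visible. Colour gives the mean log2 change over 6 cultures, on a scale stretched below 0, from -0.58 for Gss to 2.60 for Acss2, and the strongly coloured genes sit together in the middle.

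Several of these spans touch. Acss2 (plus strand, 155517948 to 155585724) and Gss (minus strand, 155563181 to 155592810) run towards each other and share 22544 bases of span, in which 395 exon bases are annotated to both, 3.89% of the exon bases of Acss2 and 6.68% of those of Gss. Of the 10 annotated Acss2 transcripts 3 overlap the span of Gss, and the others end 434 bases or more before it. Of these 3, only the protein-coding transcript from 155518057 to 155585724 starts before the Gss span and runs into it. The transcripts from 155568550 to 155585266 and from 155572862 to 155576980 are not annotated as protein-coding and lie wholly within the Gss span. Ggt7 (minus strand, 155490379 to 155518237) and Acss2 start back to back, with 290 bases of overlap of which 197 are exonic in both. Myh7b (plus strand, 155611212 to 155634307) begins 25488 bases after the last base of Acss2 and 18402 after that of Gss, and its last 37 bases overlap the end of Trpc4ap (minus strand, 155634271 to 155692384). The library kit keeps strand, but which strand setting the counts followed was not tested, so reads in shared bases are of uncertain origin. Ncoa6 (minus strand) spans 155390656 to 155473894, Edem2 (minus strand) 155701677 to 155729475, Mmp24 (plus strand) 155775342 to 155818366 and Eif6 (minus strand) 155819832 to 155826925.

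The sequences upstream of the 4 genes called without culture terms are shown because the genes are neighbours with changes of different size and direction. They are RefSeq sequences of GRCm38.p6, 5′ to 3′ on the gene's own strand, taken from the 250 bases before the RefSeq start and cut to the longest run with no annotated exon. RefSeq tables held such a sequence for 8 of the 9 genes. Capitals mark the GC box GGGCGG and the E-box CACGTG, searched on both strands, so that a GC box can read CCGCCC. The Acss2 run (155 bases, chr2:155517793-155517947, plus strand) also lies within the annotated span of Ggt7. The Ggt7 run (248 bases, chr2:155514849-155515096, minus strand) belongs to a RefSeq start 3391 bases inside the outermost GENCODE start. The Gss run (209 bases, chr2:155592852-155593060, minus strand) begins beyond the antisense gene Gssos2. It lies within the annotated span of another antisense gene, Gssos1 (plus strand, 155592319 to 155594955). The Myh7b run has 219 bases (chr2:155610993-155611211, plus strand).
Acss2: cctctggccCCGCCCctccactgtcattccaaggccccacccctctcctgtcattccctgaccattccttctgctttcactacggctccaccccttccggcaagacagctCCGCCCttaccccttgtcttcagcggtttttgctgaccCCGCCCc
Ggt7: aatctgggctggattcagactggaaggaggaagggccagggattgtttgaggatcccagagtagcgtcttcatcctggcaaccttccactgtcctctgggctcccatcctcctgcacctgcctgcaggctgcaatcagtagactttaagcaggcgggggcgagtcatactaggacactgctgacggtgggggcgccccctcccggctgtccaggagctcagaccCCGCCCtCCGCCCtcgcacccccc
Gss: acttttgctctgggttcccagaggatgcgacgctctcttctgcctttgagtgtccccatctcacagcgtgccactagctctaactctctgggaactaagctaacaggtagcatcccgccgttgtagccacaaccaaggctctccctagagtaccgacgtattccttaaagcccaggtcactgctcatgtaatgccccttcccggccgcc
Myh7b: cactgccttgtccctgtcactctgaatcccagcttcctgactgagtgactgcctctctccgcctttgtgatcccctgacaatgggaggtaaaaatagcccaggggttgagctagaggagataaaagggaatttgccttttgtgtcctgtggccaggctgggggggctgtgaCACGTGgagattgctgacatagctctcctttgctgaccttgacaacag

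In the full 250 bases, Acss2 had 4 GC boxes and 1 CCAAT box (CCAAT, found as ATTGG), Ggt7 had 2 GC boxes and Myh7b had 1 E-box. Gss had none of these. GC boxes were in 32.7%, CCAAT boxes in 33.8% and E-boxes in 6.02% of the 32851 promoter windows of the same length. The sterol regulatory element, searched as TCACNCCAC and as TCACGTGA, was in 1.05% and 0.785% of the windows and in none of the 8 members' windows, which says only that these letters are not there. The Ncoa6 window belongs to a RefSeq start 33111 bases inside the outermost GENCODE start, so it lies within the annotated gene. TGACNNNGC, the antioxidant response element, was in 10.2% of the windows, once in Acss2 where it overlaps a GC box, once in Myh7b and not in Gss. A match is a stretch of letters and no evidence of binding. Among the genes that were not called, Mmp24 had 3 GC boxes and Edem2 had 1.

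Acss2 had the largest log2 fold change of the 9 genes. Its normalized values, reads divided by an effective library size, were 909, 548 and 763 in female pravastatin cultures 1 to 3 and 912, 991 and 1061 in male pravastatin cultures 1 to 3, against 138, 96.8 and 108 in female vehicle and 181, 165 and 167 in male vehicle. Every pravastatin library stood above every vehicle library, and female cultures 2 and 3 were the lowest under both treatments. The mean was 864 ± 184 with pravastatin and 143 ± 34.4 with vehicle (SD, n = 6 each), a log2 fold change of 2.60 (SE 0.12), or 6.06-fold. The change within a culture ran from 2.33 in male culture 1 to 2.81 in female culture 3 on the log2 scale, so the cultures differed more in level than in response. These values rested on 8298 to 16819 reads per pravastatin library and 1678 to 3205 per vehicle library.

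Ggt7, which starts back to back with Acss2, rose as well, and by less. It was at 75.0, 45.8 and 61.3 in female pravastatin cultures and 80.7, 83.5 and 88.2 in male pravastatin cultures, against 22.1, 21.4 and 24.8 in female vehicle and 25.5, 24.6 and 25.3 in male vehicle. The groups did not overlap, and female culture 2 had the lowest value with pravastatin and with vehicle. The log2 fold change was 1.55 (SE 0.11), or 2.92-fold, with changes within cultures from 1.08 in female culture 2 to 1.78 in male culture 3. The Acss2 value was 11.3 to 12.4 times that of Ggt7 in the pravastatin libraries and 4.37 to 7.10 times in the vehicle libraries. The ratio was thus higher in every pravastatin library than in any vehicle library, and its spread was narrower.

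Myh7b was low with vehicle and higher with pravastatin. It had 5.27, 2.51 and 2.40 in female pravastatin cultures and 6.76, 5.36 and 4.46 in male pravastatin cultures, against 0.951, 0.635 and 0.541 in female vehicle and 0.651, 1.22 and 0.627 in male vehicle. All pravastatin values were above all vehicle values. They stood on 36 to 96 reads per library with pravastatin and 9 to 20 with vehicle, and 3 reads corresponded to a value of 0.157 to 0.228. The log2 fold change on the log2(value + 0.5) scale was 1.91 (SE 0.21), which understates the change of so low a gene. The ratio of the mean values was 5.79, against 6.05 for Acss2. Acss2 was at 135 to 319 times the value of Myh7b with pravastatin and 136 to 278 times with vehicle, so those ranges overlapped. Myh7b passed the filter on low values, above 1 in 6 libraries or more, through its pravastatin libraries: 6 pravastatin libraries and 1 vehicle library were above 1. Of the other muscle genes listed as markers, 3 of 6 were in the table, and Myh6, Tnnt2 and Ckm were not among the genes tested. Their summed value, mostly Actc1, was 11.7 to 18.0 with pravastatin and 11.2 to 17.9 with vehicle. Des, the intermediate filament protein desmin, was higher in 6 of 6 cultures, at 0.933, 0.396, 1.46, 1.06, 0.943 and 1.13 in female 1 to 3 and male 1 to 3 with pravastatin, against 0.280, 0.346, 0.842, 0.592, 0.365 and 0.575 with vehicle (log2 difference 0.56, SE 0.19, limma adjusted p = 0.173 with no filter). Myh7, the close relative of Myh7b, differed by -0.20 (SE 0.19). The part of muscle-like cells in the Myh7b result was not tested.

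Gss was the 1 gene of the 9 that was called lower. Its values were 12.95, 13.60 and 13.04 in female pravastatin cultures and 13.5, 13.4 and 11.9 in male pravastatin cultures, against 19.6, 17.7 and 19.0 in female vehicle and 20.7, 19.8 and 21.8 in male vehicle. Every pravastatin library was below every vehicle library, and the spread within each treatment was small. The mean was 13.1 ± 0.64 with pravastatin and 19.8 ± 1.43 with vehicle (SD, n = 6 each), and the log2 fold change was -0.58 (SE 0.07). The changes within cultures ran from -0.85 in male culture 3 to -0.36 in female culture 2. A minimum of 1.5-fold, as the study required, falls at the size of this change, and the side on which Gss lay depended on the pseudocount and the tool. The signed fold was -1.49 with the pseudocount of 0.5, where 0 of the 9 genes and 0.0133% of all genes were called lower with that minimum, and -1.51 with a pseudocount of 0.1. On the reads it was -1.52 with edgeR and -1.51 with DESeq2, and Gss was called lower with the 1.5-fold minimum in both. With the pseudocount of 0.5 the signed fold of Gss was -1.59 in males alone and -1.40 in females alone. The reads behind Gss were 157 to 236 per pravastatin library and 306 to 418 per vehicle library. Acss2 was at 40.3 to 89.4 times the value of Gss with pravastatin and 5.48 to 8.74 times with vehicle.

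**Figure D2:**
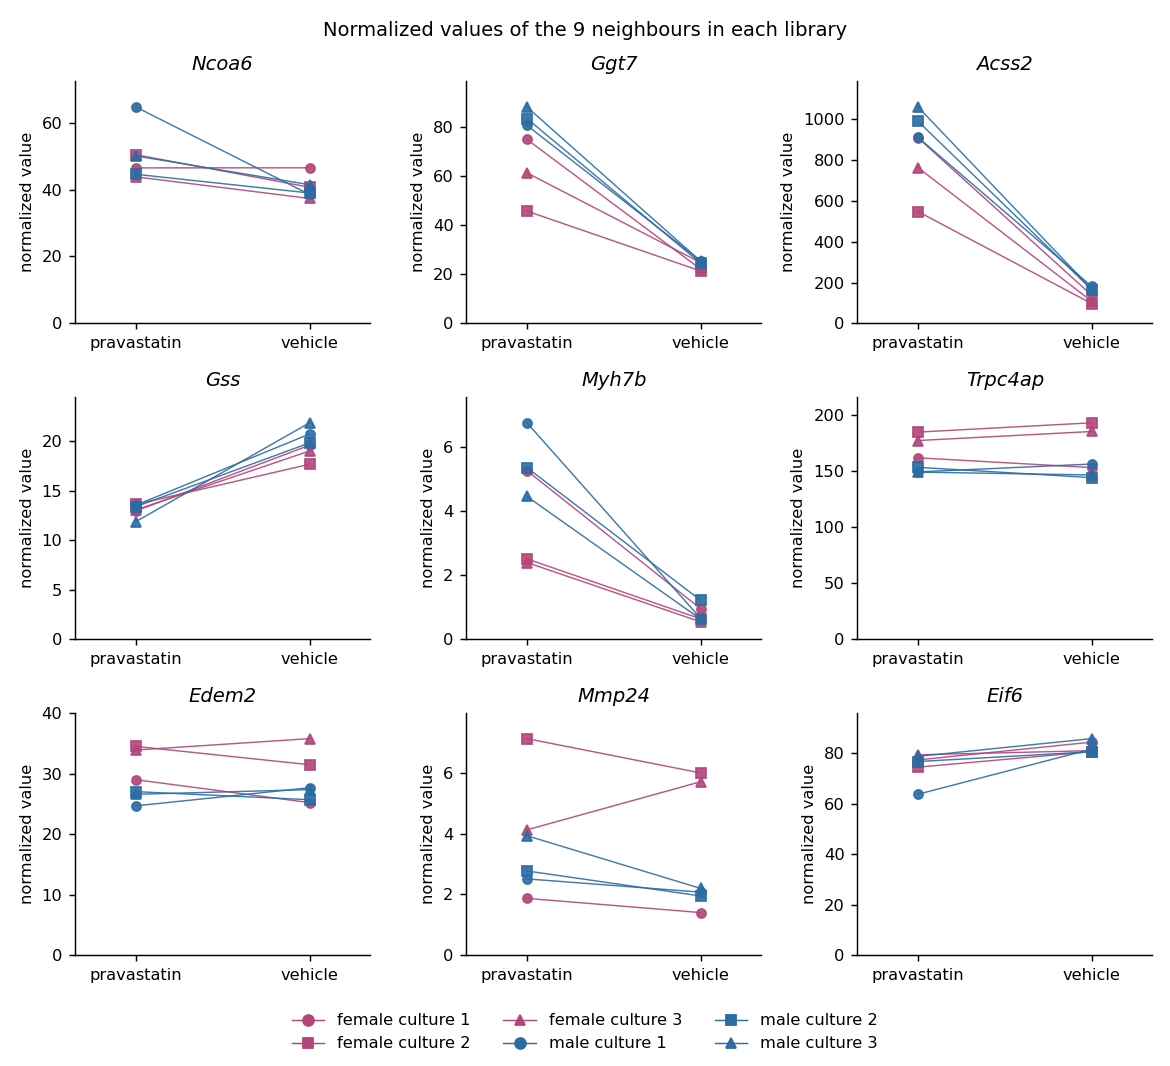
Normalized values (reads divided by an effective library size) of the 9 genes in the 12 libraries, pravastatin at the left and vehicle at the right of each panel, with a line for each culture and vertical axes that start at 0. Acss2, Ggt7 and Myh7b are higher and Gss lower in all 6 pravastatin libraries, while the lines of Trpc4ap, Edem2 and Mmp24 cross.

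The other 5 genes were not called. Ncoa6 had 46.5, 50.4 and 43.8 in female pravastatin cultures and 64.7, 44.5 and 50.04 in male pravastatin cultures, against 46.5, 40.7 and 37.3 in female vehicle and 38.5, 39.0 and 41.4 in male vehicle. It was higher in 5 of 6 cultures, with male pravastatin 1 far above the rest, and its log2 fold change was 0.29 (SE 0.09). With a term for each culture in the model, under which 10.5% of all genes were called higher and 8.13% lower, Ncoa6 was called too, which made 4 members higher.

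Eif6 had 77.4, 74.5 and 79.4 in female pravastatin cultures and 63.8, 76.7 and 78.8 in male pravastatin cultures, against 84.4, 80.6 and 81.03 in female vehicle and 81.7, 80.6 and 85.8 in male vehicle. The groups did not overlap, and male pravastatin 1 was the lowest. The difference was small, with means of 75.1 ± 5.81 with pravastatin and 82.4 ± 2.21 with vehicle (SD, n = 6 each) and a log2 fold change of -0.14 (SE 0.06), which was not called with or without the culture terms. Counted by libraries alone, 3 of the 9 genes had every pravastatin library above every vehicle library and 2 had every one below, where 2.25% and 0.59% of all genes did.

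Trpc4ap, whose end overlaps that of Myh7b, was level. It was at 149 to 185 with pravastatin (mean 163 ± 15.2) and 144 to 193 with vehicle (163 ± 20.8, SD, n = 6 each), higher in 3 cultures and lower in 3, and its log2 fold change was 0.00 (SE 0.06). Edem2 had 24.7 to 34.5 with pravastatin and 25.2 to 35.8 with vehicle, with a log2 fold change of 0.02 (SE 0.09), again with 3 cultures in each direction. Mmp24 was low and uneven, at 1.87, 7.13, 4.13, 2.51, 2.77 and 3.93 in female 1 to 3 and male 1 to 3 with pravastatin, against 1.40, 6.001, 5.71, 2.07, 1.94 and 2.19 with vehicle. It was higher in 5 of 6 cultures, with a log2 fold change of 0.25 (SE 0.33).

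Female cultures 2 and 3 were lowest in Acss2 under both treatments, as given above, and highest in 3 of the genes that were not called. Trpc4ap was at 177 to 193 in their 4 libraries and 144 to 162 in the other 8, Edem2 at 31.5 to 35.8 in the 4 and 24.7 to 29.0 in the 8, and Mmp24 at 4.13 to 7.13 in the 4 and 1.40 to 3.93 in the 8. The same 4 libraries had more RNA of glial markers, with the astrocyte list (3 of 3 in the table) summing to 316 to 983, against 52.9 to 201 in the other 8, and the oligodendrocyte list (2 of 3 in the table) to 77.5 to 300, against 4.14 to 9.88. The neural stem cell list (5 of 5) summed to 6654 to 7473 in the 4 and 6272 to 7554 in the 8, but its genes differed. Nes was lower in the 4, at 624 to 895 against 1103 to 1234. Sox2 (438 to 573 against 257 to 297) and Pax6 (45.8 to 52.7 against 35.1 to 39.7) were higher, and Vim and Fabp7 overlapped. By treatment, the stem cell list summed to 6272 to 7473 with pravastatin and 6288 to 7554 with vehicle. The neuron list (3 of 3) summed to 833 to 1032 and 786 to 1031, and the endothelial list (1 of 2) to 0.798 to 2.89 and 0.972 to 1.85. None of the 3 microglial markers was among the genes tested. The part of the glial cells in the levels of these genes was not tested. Without these 4 libraries Acss2, Ggt7 and Gss were called with log2 fold changes of 2.57, 1.73 and -0.64, and Myh7b missed the filter. The counts of genes with no overlap between treatments, 3 higher and 2 lower, were the same without them, where 9.51% and 10.7% of all genes did not overlap.

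**Figure D3:**
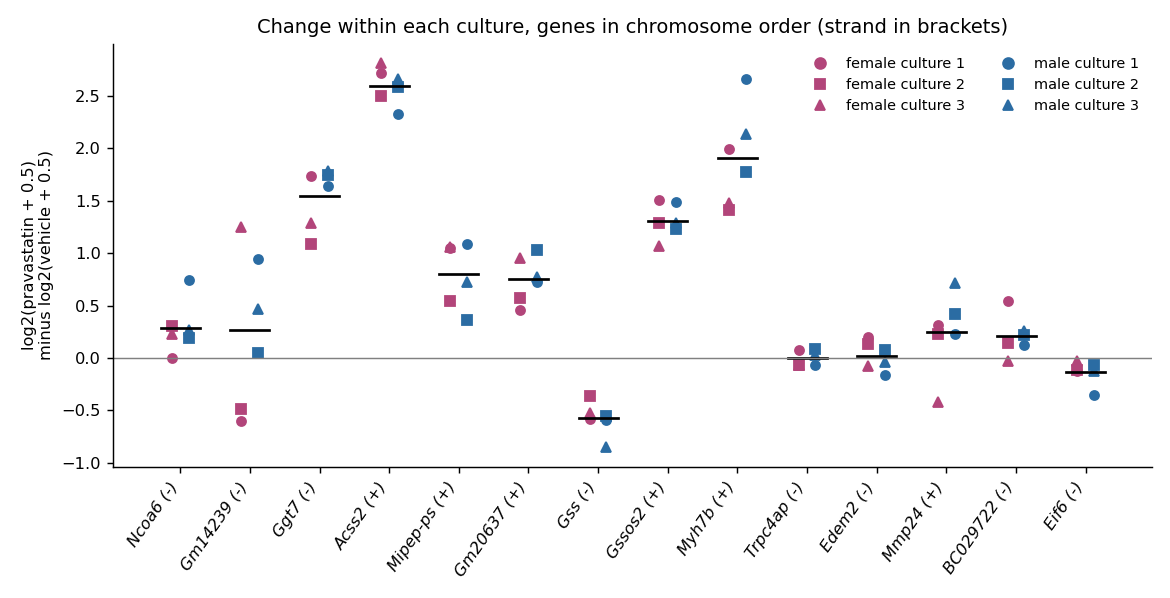
Difference in log2(value + 0.5), pravastatin minus vehicle, within each of the 6 cultures for the 14 genes of the interval in the table, in chromosome order with the strand in brackets. Points are cultures and bars are means; all 6 points are above 0 for Ggt7, Acss2, Myh7b and 3 minor genes, and below 0 for Gss and Eif6.

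Per kb of exon, the order of the levels differed between treatments. Exon bases were all those annotated to any transcript of a gene, 10163 for Acss2 and 5915 for Gss. The authors counted reads on their own merged annotation, which was not used here. The order of the genes within a treatment therefore depends on the annotation taken as divisor, and other divisors were not tested. With pravastatin the normalized value of Acss2 stood first at 85.0 ± 18.1 per kb, followed by Eif6 at 27.8 ± 2.15, Ggt7 at 22.2 ± 4.90, Trpc4ap at 18.6 ± 1.74 and Edem2 at 8.46 ± 1.17 (SD, n = 6 each). With vehicle Eif6 led at 30.5 ± 0.819 per kb, ahead of Trpc4ap at 18.6 ± 2.38, Acss2 at 14.05 ± 3.38, Edem2 at 8.34 ± 1.17 and Ggt7 at 7.33 ± 0.541. In this order Eif6 and Ggt7, and Ggt7 and Trpc4ap, overlapped within 1 SD with pravastatin, as did Trpc4ap and Acss2, and Edem2 and Ggt7, with vehicle. Below them were Ncoa6 (5.13 ± 0.790 and 4.16 ± 0.334), Gss (2.21 ± 0.108 and 3.34 ± 0.242), Mmp24 (0.795 ± 0.401 and 0.688 ± 0.440) and Myh7b (0.672 ± 0.260 and 0.116 ± 0.0391), with pravastatin and then with vehicle.

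In males alone the same 3 genes were called higher and Gss lower, where 6.08% and 4.36% of 15221 genes were called. The log2 fold changes were 2.52 (SE 0.07) for Acss2, 1.72 (SE 0.07) for Ggt7, 2.19 (SE 0.22) for Myh7b and -0.67 (SE 0.10) for Gss. In females alone only Acss2 was called (2.67, SE 0.22), where 0.0724% of 15185 genes were called higher and 0% lower. Ggt7 had 1.37 (SE 0.19), Myh7b 1.62 (SE 0.32) and Gss -0.49 (SE 0.11) there, and the Acss2 call was lost in 5 of the 6 fits that left out 1 library. With culture terms, or by DESeq2 on the reads, Acss2, Ggt7 and Myh7b were called higher and Gss lower in females too. Over all 15185 genes these fits called more as well, 296 higher and 28 lower with culture terms and 130 and 2 by DESeq2.

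The difference between the sexes was itself tested, and none of the 9 genes passed. The interaction, male response minus female response on the log2 scale, was 0.56 (SE 0.40) for Myh7b, 0.35 (SE 0.21) for Ggt7, -0.15 (SE 0.24) for Acss2 and -0.18 (SE 0.14) for Gss (limma adjusted p = 1 for each). By limma 0% of all genes passed in either direction, 0.875% had an unadjusted p under 0.05, and 0 of the 9 members had an unadjusted p under 0.05, and edgeR and DESeq2 called 0 members as well. With culture terms 1 member, Ggt7, had an unadjusted p under 0.05 (adjusted p = 0.642, limma). These tests do not show that the sexes respond alike.

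Between male and female vehicle libraries, a comparison that the choice of genes did not use, 0 of the 8 members tested were called by limma, edgeR or DESeq2, where limma called 0.0265% of 15081 genes higher and 0.00663% lower and 13.4% had an unadjusted p under 0.05. Acss2 was at 181, 165 and 167 in male vehicle libraries and 138, 96.8 and 108 in female ones, so the sexes did not overlap. Its log2 difference was 0.60 (SE 0.14, limma adjusted p = 0.354), and it was the 1 member with an unadjusted p under 0.05. Without female vehicle 1, Acss2 was called higher in males and Trpc4ap, Edem2 and Mmp24 lower, in a fit that then set the males against female cultures 2 and 3 alone. That fit also called 3209 genes higher and 3324 lower over the whole table.

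The interval holds 13 other annotated genes, of which 5 were in the table and the other 8 were not analysed here. Gssos2, an RNA gene antisense to Gss on the plus strand (155591131 to 155592851), shares 385 exon bases with Gss. It had 37, 13 and 12 reads in female pravastatin cultures and 25, 21 and 18 in male pravastatin cultures, against 7, 1 and 2 in female vehicle and 6, 4 and 5 in male vehicle. The groups did not overlap, with 126 reads in all with pravastatin and 25 with vehicle. Its log2 difference was 1.31 (SE 0.19, limma adjusted p = 0.00115 in the fit with no filter on low values), higher in 6 of 6 cultures, while Gss on the other strand was lower in 6 of 6.

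A pair of processed pseudogenes in introns of Acss2, on its strand, were also higher in 6 of 6 cultures. Mipep-ps (155542647 to 155542937) had 69 reads in all with pravastatin and 23 with vehicle, with a log2 difference of 0.80 (SE 0.14, limma adjusted p = 0.00603 with no filter). Gm20637 (155546385 to 155546846) had 53 and 15 reads, with a difference of 0.75 (SE 0.15, adjusted p = 0.0131 from the same fit). Reads of a pseudogene can belong to its parent gene or to the surrounding intron, so both are uncertain. Gm14239, a pseudogene within Ncoa6, differed by 0.27 (SE 0.22, limma adjusted p = 0.604 with no filter) and BC029722, which shares 637 exon bases with Mmp24, by 0.21 (SE 0.11, limma adjusted p = 0.35). By strand, 5 of the 6 plus-strand genes in the table were higher in 6 of 6 cultures. They were Acss2, Myh7b, Gssos2, Mipep-ps and Gm20637. Of the 8 minus-strand genes 1 was higher (Ggt7) and 2 were lower (Gss and Eif6). Gssos2, Mipep-ps and Gm20637 missed the filter on low values in the fit over both sexes. The pseudogenes among them may hold reads of the Acss2 introns around them. Over the 15093 genes that passed the filter 11.7% were higher and 10.6% lower in 6 of 6 cultures.

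Genes beyond the interval were listed by position, with earlier results of these data known, so their adjusted p-values are given as a description. Of 21 flanking genes on both sides 18 were tested, with a median log2 fold change of 0.03 (all genes, -0.01), and 1 was called higher and 0 lower, where 2.69% and 0.311% of all genes were. With culture terms, under which 10.5% of all genes were called higher and 8.13% lower, 2 of the 18 were called higher (Trp53inp2 and Map1lc3a) and 2 lower (Nfs1 and Uqcc1). The gene called without them was Trp53inp2, which promotes autophagy and ends 806 bases before Ncoa6 on the plus strand (155381059 to 155389850). It was at 132, 109 and 93.7 in female pravastatin cultures and 157, 130 and 146 in male pravastatin cultures, against 75.5, 70.1 and 61.7 in female vehicle and 71.2, 70.9 and 73.6 in male vehicle. The groups did not overlap, and the log2 fold change was 0.84 (SE 0.09, limma adjusted p = 0.000156). Ncoa6, which was not called without culture terms, lies between Trp53inp2 and the run of called genes. Map1lc3a, an autophagosome protein encoded 112583 bases before Ncoa6, differed by 0.42 (SE 0.14, limma adjusted p = 0.14) and by the same amount with culture terms (adjusted p = 0.00104), and it was called in males (0.58, SE 0.08, adjusted p = 0.000686).

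Relatives of the 9 genes elsewhere in the genome were listed by family, pathway step or similar name, as with Trpc1 and Trpc4 for Trpc4ap. They too were chosen with earlier results known, so their adjusted p-values are given as a description. Of these 29 genes 22 were tested, with a median log2 fold change of 0.01. Of the 22, 1 was called higher and 0 lower, where 2.69% and 0.311% of all genes were. With culture terms 4 of the 22 were called higher (Acly, Ncoa2, Trpc1 and Mmp15) and 2 lower (Mmp14 and Gsr). Under those terms 10.5% of all genes were called higher and 8.13% lower. The gene called without them was Acly, which makes cytosolic acetyl-CoA from citrate and so yields the same product as Acss2. Its mean was 1388 ± 281 with pravastatin and 512 ± 109 with vehicle (SD, n = 6 each), with a log2 fold change of 1.44 (SE 0.13, limma adjusted p = 2.33e-05) and a higher value in 6 of 6 cultures. The mitochondrial Acss1 differed by -0.19 (SE 0.21). Of the glutathione genes, Gclc and Gclm, the subunits of the enzyme that makes the substrate of Gss, differed by -0.11 (SE 0.15) and 0.00 (SE 0.11), and the glutathione reductase Gsr by -0.17 (SE 0.15, limma adjusted p = 0.6, and 0.037 with culture terms). Edem1 and Edem3 differed by -0.05 (SE 0.10) and 0.02 (SE 0.04). In males Mmp15, a metalloproteinase, was called too (0.36, SE 0.09, limma adjusted p = 0.0269), and in females none of either list was called (smallest limma adjusted p = 0.187).

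**Figure D4:**
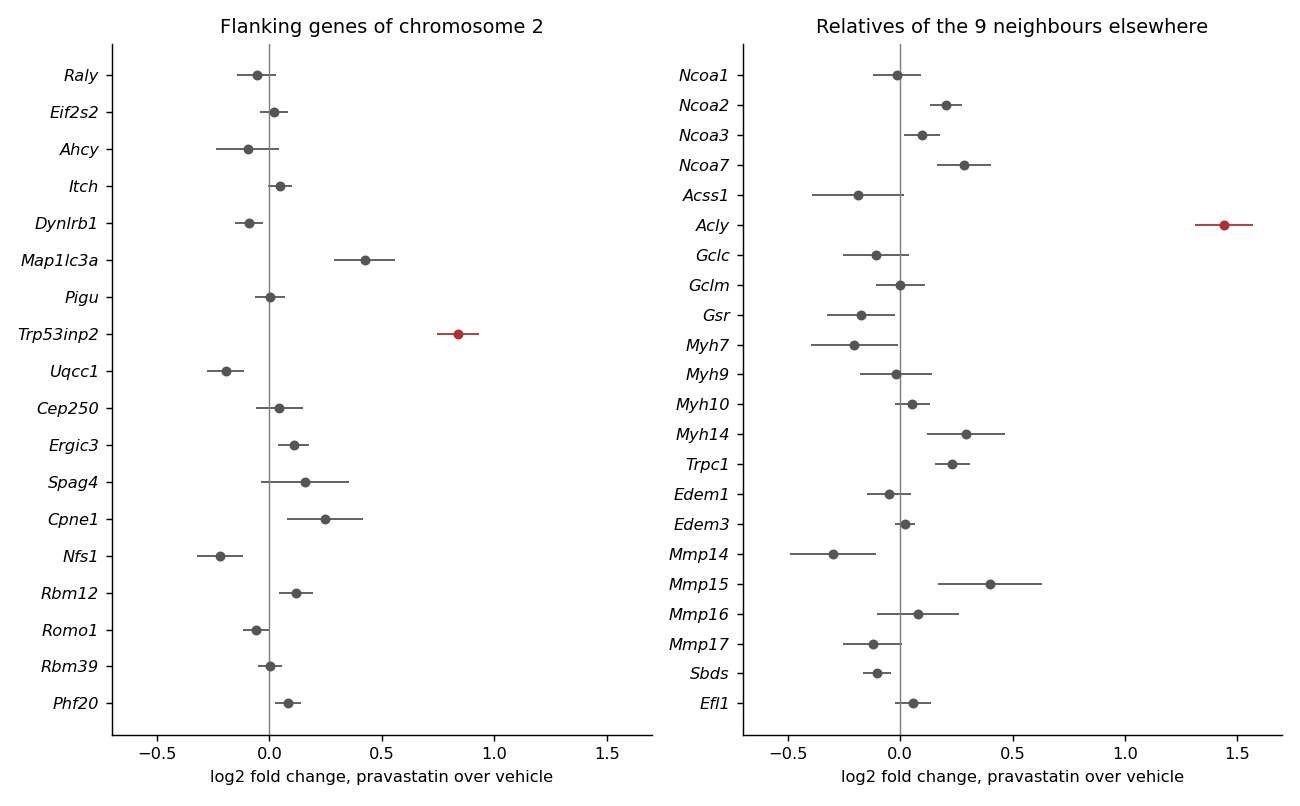
Log2 fold change of pravastatin over vehicle, with its standard error, from the limma fit over all 12 libraries, for the 18 flanking genes of chromosome 2 (left) and the 22 relatives elsewhere (right). Red marks an adjusted p under 0.05, which Trp53inp2 (0.84) and Acly (1.44) had.

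The genes whose pattern over the 12 libraries was most like that of 3 members were found by Pearson's r of log2(value + 0.5), given as a description, since all points share the treatment. For Acss2 they were Mvd (r = 0.997), Acat2 (0.997) and Hmgcs1 (0.996), which act in the mevalonate pathway or its first steps. Mvd ran from 345 to 611 with pravastatin and from 72.4 to 112 with vehicle. For Gss they were Fem1a (0.947), Acad8 (0.919) and Gm5898 (0.899), and Fem1a ran from 83.6 to 89.0 with pravastatin and from 96.9 to 103 with vehicle. For Myh7b they were Osbp (0.983), an oxysterol-binding protein, Unc13a (0.983), which primes synaptic vesicles, and Stat2 (0.981), a mediator of interferon signals. Osbp ran from 96.6 to 108 with pravastatin and from 86.7 to 91.1 with vehicle, a much smaller step than that of Myh7b.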

How the data were processed

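The authors merged the reads of 2 lanes, aligned them to GRCm38 with TopHat2 2.1.1, assembled transcripts and counted reads with HTSeq at default settings. The deposited signal values are reads per gene divided by an effective library size, filtered by the authors, and 100% of them were whole reads within 0.001 read. Columns of fold changes and p-values in the 3 deposited sheets hold the study's own comparisons and were not used. Libraries held 13353619 to 18422845 reads, and floors cover counting error only.

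The values were tested with limma 3.58.1 (R 4.3.3) on log2(value + 0.5), for genes whose value passed 1 in 6 or more libraries (3 where a fit held 1 sex or 1 treatment), with Benjamini-Hochberg adjustment. Alternatives were other pseudocounts and filters, edgeR 4.0.16 (399 genes higher and 47 lower, both sexes) and DESeq2 1.42.0 on the recovered reads, read-total scaling, culture terms, no sex term, a 1.5-fold minimum and leaving out libraries. Scripts were tested on simulated data. Same-numbered libraries correlated at 0.871, 0.871 and 0.428 in females and 0.182, 0.179 and 0.303 in males. Libraries of different number correlated at -0.838 to 0.425 in females and -0.196 to -0.019 in males. The 0.425 was between female pravastatin 2 and female vehicle 3, so the correlations alone do not separate female cultures 2 and 3. Same-numbered libraries also share sample codes, so the numbers were taken to pair the libraries.

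The members and lists were chosen with earlier results of these data known. The text names every member, every other gene of the table in the interval, the called genes of the flanking and relatives lists and the 3 genes most like Acss2, Gss and Myh7b. Acss1, Gclc, Gclm, Gsr, Edem1, Edem3, Des, Myh7 and list genes called only with culture terms or in males were named after their values were seen. Positions are from GENCODE vM21.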

Additional observations from a re-analysis of the deposited data

Results flagged for a closer look

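Among the 18 sets of 6 values, the pravastatin and vehicle values of the 9 genes, 2 had a library apart from the others. In Ncoa6 male pravastatin 1 was at 64.7, above the next library at 50.4, and the gap was 0.684 of the whole range. In Eif6 the same library was at 63.8, below the next at 74.5, and the gap was 0.687 of the range. Both gaps pass Dixon's critical value for 6 samples, which chance does in about 1 of 20 sets. Neither gene was called with all libraries in the fit and no culture terms. Of 40 such sets for the 20 other genes of the interval and lists named in the text, 1 had a library apart. In Nfs1, a flanking gene, female pravastatin 2 was at 46.8, above the next at 36.6, and the gap was 0.631 of the range.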

How the results depend on the processing

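Directions of the 4 called members held in every alternative that tested them. Asking also for 1.5-fold left 0 members lower in the fit over both sexes and 1 (Gss) in males alone. Versions of that rule over both sexes were chosen after seeing the data. They left 0 with a pseudocount of 1 and 0 with the replicate block. They left 1 (Gss) with a pseudocount of 0.1, edgeR (either scaling, or with the block), DESeq2 and read-total scaling. With the block, also added after seeing the data, the flanking list had 2 genes higher and 2 lower and the relatives list 4 higher and 2 lower. In females the count higher was 0 with edgeR and RLE factors, 0 with values scaled to read totals, 3 with DESeq2, 3 with the replicate block (a term for each culture) and 3 with the block in edgeR, and the count lower was 1 with DESeq2, 1 with the block and 1 with the block in edgeR. Without each library in turn, females had 0 to 1 members higher (0 without female pravastatin 1, 2 or 3 or female vehicle 2 or 3). Male against female vehicle had 0 to 1 higher and 0 to 3 lower (1 and 3 without female vehicle 1). In the fit over both sexes together, the culture terms added Ncoa6 and changed no other call of a member. In males Ncoa6 was called by edgeR, by DESeq2, with culture terms and without male pravastatin 2 or 3. Myh7b missed the filter that asks for a value above 1 in every library. On reads the log2 fold change of Myh7b was 2.50 with edgeR and either scaling, 2.50 with the block and 2.51 with DESeq2. The cause of these changes was not tested. The counts of members with no overlap between treatments, 3 higher and 2 lower, were the same without female cultures 2 and 3, an alternative chosen after seeing the data. Scaling to read totals moved the median of all genes to -0.07. Depth limits Myh7b (9 to 20 reads per vehicle library), Mipep-ps (1 to 8), Gssos2 (1 to 7) and Gm20637 (0 to 6).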
